A study of Mus musculus with 4 samples.

Results

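Open chromatin was mapped by ATAC-seq, which uses the transposase Tn5 to cut accessible DNA, in cultured myoblasts from WT mice and from Tet2 KO mice, all C57BL/6, and the regions described here are the distal peaks that hold both an AP-1 site and an E box. A peak was taken when its centre lay in an intron or between genes (mm9, GENCODE M1), outside exons and outside the stretch from 1000 bp upstream to 100 bp downstream of any transcription start. Its sequence had to hold the AP-1 consensus TGACTCA or TGAGTCA, which are the same site read on opposite strands, and the palindromic E box CAGCTG. Of 25775 peaks in the WT list, 17865 were distal and 2589 were members, and of 3836 peaks in the Tet2 KO list, 2077 were distal and 336 were members. The other distal WT peaks held an AP-1 site only (4748), an E box only (5024) or neither (5504).

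The cells were satellite cells sorted from hindlimb muscle and cultured for 3 days on collagen, with 5000 cells per library and 2 samples per genotype. The Tet2 KO mice carry a deletion of exon 3 in all cells, and whether cells of several animals were pooled is not given in the sources used here. Each genotype has 1 peak list, in which all peak names carry a single library name, and which its file ties to the genotype but not to a sample, so no replicate error could be had and no difference between genotypes was tested. The intervals below are Wilson 95% intervals of counts within these lists, and they cover counting error only. The comparison asks which distal sites that were open in WT myoblasts were also listed in myoblasts without Tet2. Both lists skip peak numbers (9707 of 35482 in WT and 4403 of 8239 in Tet2 KO), so peaks are missing from both, and a WT peak without a Tet2 KO peak was not listed there rather than shown to be closed. The most frequent local background, in fragments at a position, was 0.649 for WT and 1.384 for Tet2 KO. Of 9 myoblast markers, 4 had a WT peak at the promoter (Myod1, Sdc4, Des and Chrna1) and 3 of these a Tet2 KO peak (Myod1, Des and Chrna1). Of 16 markers of endothelial, immune, fibro-adipogenic and neural cells, only Pecam1 had a promoter peak, in the WT list. The promoters of Pax7, Myf5, Cdh15, Itga7 and Vcam1, which also mark these cells, had none.

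AP-1 is a dimer of Fos and Jun family proteins that binds the TRE, the site TGACTCA, and AP-1 sites are frequent in enhancers that open in activated and cultured cells. E boxes are bound by basic helix-loop-helix dimers, and CAGCTG is the form preferred by MyoD, the myogenic factor that pairs with E proteins such as Tcf3 and Tcf12 to direct muscle genes. Tet2 is a dioxygenase that oxidises 5-methylcytosine at CpG sites, and oxidation leads to loss of the methyl mark, so the CpG sites beside the E boxes of these regions are described as well.

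Sequences of the members with the highest fold enrichment in WT are printed first, because they show how variable the arrangement was. Of the 8 strongest, 6 were overlapped by a Tet2 KO peak, and Fhl4 (ranked 4) and Grin2b (ranked 8) were not. Among all 2589 WT members 20.5% were overlapped, and among the 884 with a fold enrichment of 10.29 or more 40.3%. In that range 27.7% of distal WT peaks with an AP-1 site only, 33.5% with an E box only and 32.6% with neither were overlapped. These 8 thus do not stand for the members as a whole. Fold enrichment is the number of fragments over the summit divided by the number that the local background gives. Sequences are from mm9, plus strand, named by the nearest protein-coding gene start, with AP-1 sites and E boxes in capitals. A nearest gene is a landmark and was not shown to be regulated by the region. The 6 overlapped regions come first, picked for that overlap.
Tiparp chr3:65278612-65278779: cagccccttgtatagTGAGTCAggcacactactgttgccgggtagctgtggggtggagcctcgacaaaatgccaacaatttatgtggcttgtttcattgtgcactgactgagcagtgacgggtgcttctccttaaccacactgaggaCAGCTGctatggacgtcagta
Serpinb1c chr13:32976831-32976889: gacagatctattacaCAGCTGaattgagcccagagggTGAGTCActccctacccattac
Gli2 chr1:120873249-120873405: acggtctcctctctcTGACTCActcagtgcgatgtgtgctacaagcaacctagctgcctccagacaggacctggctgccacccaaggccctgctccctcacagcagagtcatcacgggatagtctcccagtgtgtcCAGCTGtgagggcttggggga
Magi1 chr6:93425133-93425257: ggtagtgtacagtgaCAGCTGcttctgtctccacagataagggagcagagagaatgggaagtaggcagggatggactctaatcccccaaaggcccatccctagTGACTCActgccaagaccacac
Uck2 chr1:169172485-169172575: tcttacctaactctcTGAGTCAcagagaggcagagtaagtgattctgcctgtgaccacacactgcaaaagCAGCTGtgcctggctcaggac
Tnc chr4:63985465-63985653: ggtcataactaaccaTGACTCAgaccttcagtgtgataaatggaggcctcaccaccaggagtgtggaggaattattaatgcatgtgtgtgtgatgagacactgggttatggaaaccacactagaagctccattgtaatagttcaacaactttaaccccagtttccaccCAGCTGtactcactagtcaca

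In these 6 regions the closest AP-1 site and E box lay between 16 bases (Serpinb1c) and 146 bases (Tnc) apart, and either site could come first. The region upstream of Tiparp, a gene of the poly-ADP-ribose polymerase family, had the highest fold enrichment of all members. It was 19.16 in WT with 49 fragments at the summit, and 7.682 with 18 fragments in Tet2 KO. The intronic region of Gli2, a transcription factor of Hedgehog signalling, had 18.18 in WT and 6.589 in Tet2 KO. The region of Tnc, which encodes the matrix protein tenascin C, lay 303850 bp upstream of the start and had 17.86 in WT and 8.672 in Tet2 KO.

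The 5 strongest members without a listed Tet2 KO peak follow, Fhl4 and Grin2b among them, shown for comparison with the regions above.
Fhl4 chr10:84474008-84474110: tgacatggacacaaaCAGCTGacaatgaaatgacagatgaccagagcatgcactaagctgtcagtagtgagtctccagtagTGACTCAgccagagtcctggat
Grin2b chr6:136080501-136080543: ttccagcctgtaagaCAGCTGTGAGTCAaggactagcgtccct
Cd109 chr9:78789618-78789711: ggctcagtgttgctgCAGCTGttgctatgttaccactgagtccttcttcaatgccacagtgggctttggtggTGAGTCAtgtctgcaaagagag
Npepl1 chr2:173942828-173942898: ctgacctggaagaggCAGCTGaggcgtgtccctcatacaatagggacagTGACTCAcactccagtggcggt
Ubr4 chr4:138978455-138978591: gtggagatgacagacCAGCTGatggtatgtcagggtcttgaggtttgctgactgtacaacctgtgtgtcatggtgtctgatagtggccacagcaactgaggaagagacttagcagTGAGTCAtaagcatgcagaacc

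Their fold enrichment in WT ran from 16.53 (Ubr4) to 18.14 (Fhl4), with 29 to 44 fragments at the summit. The values reached into the range of the 6 regions above, which ran from 17.86 to 19.16. The number of CpG sites in the peak ran from 0 to 13 in these 5 and from 0 to 10 in the first 6, so the ranges of both values overlapped between these few regions.

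The closest arrangement without shared bases had 0 bases between the sites, as in the intronic Grin2b region above and in the following regions.
Ube3a chr7:66282939-66282981: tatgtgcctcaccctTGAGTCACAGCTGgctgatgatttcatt
Egln3 chr12:55353364-55353406: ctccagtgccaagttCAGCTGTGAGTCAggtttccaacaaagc
Oxr1 chr15:41443924-41443966: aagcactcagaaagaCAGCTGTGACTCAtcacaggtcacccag
Ntsr1 chr2:180247096-180247138: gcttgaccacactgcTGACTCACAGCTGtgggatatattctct

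In 139 members (5.37%) the sites shared 2 bases, so that a single 11-base stretch held both. The 5 examples include an intron of Pax7, the transcription factor of satellite cells.
Defb43 chr14:63639766-63639806: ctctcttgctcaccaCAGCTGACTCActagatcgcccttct
C1d chr11:17286839-17286879: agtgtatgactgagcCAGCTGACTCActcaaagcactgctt
Apoh chr11:108226736-108226776: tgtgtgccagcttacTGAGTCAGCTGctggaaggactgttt
Rfx3 chr19:28124010-28124050: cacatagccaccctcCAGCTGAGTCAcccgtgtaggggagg
Pax7 chr4:139353416-139353456: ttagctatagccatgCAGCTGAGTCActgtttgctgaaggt

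The Pax7 region had a fold enrichment of 9.459 in WT with 20 fragments and no Tet2 KO peak. Of the other 4, the regions near Defb43, C1d and Rfx3 were overlapped by a Tet2 KO peak and that near Apoh was not. Of all 139 members with shared bases, 24 (17.3%) were overlapped, beside 20.5% of all members. Members beside regulators of myogenesis and of helix-loop-helix dimers are given last.
Myod1 chr7:53596993-53597176: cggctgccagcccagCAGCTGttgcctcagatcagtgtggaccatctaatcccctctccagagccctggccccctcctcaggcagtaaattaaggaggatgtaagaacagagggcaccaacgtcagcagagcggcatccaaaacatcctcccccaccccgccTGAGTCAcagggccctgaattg
Id2 chr12:25874194-25874240: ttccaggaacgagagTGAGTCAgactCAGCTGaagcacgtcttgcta
Heyl chr4:122903332-122903382: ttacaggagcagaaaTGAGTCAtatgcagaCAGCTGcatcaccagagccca
Tead4 chr6:128215358-128215459: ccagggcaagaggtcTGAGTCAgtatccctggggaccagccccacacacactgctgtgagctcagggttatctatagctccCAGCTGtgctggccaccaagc

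The Myod1 region lay 34835 bp upstream of the start, and its fold enrichment was 10.51 in WT with 42 fragments and 6.712 in Tet2 KO with 23 fragments. The Id2 region lay 93354 bp upstream of the gene of an inhibitor of E proteins, with 10.54 in WT and 5.799 in Tet2 KO. The Heyl region, 7425 bp upstream of the gene of a Notch-responsive repressor, had 10.03 in WT and 5.702 in Tet2 KO. The Tead4 region lay in an intron of the gene of a partner of YAP, with 15.99 in WT and 7.639 in Tet2 KO. All 4 were lower in the Tet2 KO list than in the WT list, with no replicate for either value. This held for all 530 overlapped members and for 1384 of 1430 other overlapped distal WT peaks (96.8%). All 4 shown regions had a Tet2 KO peak. Within 100000 bp, 1 of 8 members near myogenic regulators had one, 3 of 6 near E proteins and their inhibitors, and 1 of 2 near TEAD and YAP genes. Among all members near genes it was 20.75%.

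Members made up 14.5% of distal WT peaks (interval 13.98 to 15.02%) and 16.2% of distal Tet2 KO peaks (14.7 to 17.8%). The number of members was 7.71 times higher in WT than in Tet2 KO, against 8.60 times for all distal peaks, 10.4 times for peaks with an AP-1 site only, 9.37 times for those with an E box only and 7.37 times for those with neither. Over all listed peaks, promoters and exons included, it was 6.72 times. The ratio for members moved with the cutoff, to 11 with a −log10 q of 5 or more in both lists and 37.6 with 10 or more. All 336 Tet2 KO members (98.87 to 100%) shared 1 bp or more with a WT peak, against 95.7% of all distal Tet2 KO peaks. The share was 98.9% with an AP-1 site only, 98.5% with an E box only and 89.8% with neither, so it was high in all classes with a site. Of the WT peaks overlapped by Tet2 KO members, 333 were themselves members and 3 held an AP-1 site only.

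Both sites were common in distal WT peaks, in which 41.1% held an AP-1 site and 42.6% an E box. Within 100 bp to either side of the summit the shares were 38.9% and 39.8%, and both sites were held by 11.96%. In windows of the same length 1000 bp from the summits, outside listed WT peaks, the shares were 3.59%, 9.65% and 0.359% of 35146 windows. In all tiles of that length in the autosomes and X they were 3.12%, 7.26% and 0.287%. Thus AP-1 sites differed more between summits and their surroundings than E boxes did, in these counts.

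Within distal WT peaks, however, the sites were found together less often than their separate shares would give. The product of the shares was 17.5%, and 14.5% held both, a ratio of 0.828. The ratio was below 1 in each of 5 groups of equal size by peak width, from 0.636 in the narrowest peaks (100 to 143 bp) to 0.901 in the widest (297 to 2588 bp). At the summits the ratio was 0.772. In distal Tet2 KO peaks it was 1.01 over whole peaks and 0.954 at the summits, and in the windows 1000 bp away it was 1.03. The Tet2 KO ratio comes from 336 members, and the share of members in that list (14.7 to 17.8%) includes the 16.1% that the product gives.

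WT members were stronger and wider than the other distal WT peaks. Their fold enrichment had a median of 9.10 (quartiles 7.46 and 11.0), against 8.25 with an AP-1 site only, 7.865 with an E box only and 7.18 with neither. The median width was 255 bp, against 206, 221 and 181 bp in the same order. A wider peak has more sequence in which to hold a site, so width is linked to the rule itself. In the Tet2 KO list the order of the medians was the same, 5.91 for members, 5.75, 5.56 and 5.33, and the widths were 225, 195.5, 201.5 and 165 bp.

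Of the 2589 WT members, 530 (20.5%, interval 18.96 to 22.07%) were overlapped by a Tet2 KO peak. Among all distal WT peaks 11.0% were overlapped, and among all WT peaks 14.1%. The share was 9.65% (8.84 to 10.5%) with an AP-1 site only, 11.05% (10.2 to 11.9%) with an E box only and 7.58% (6.91 to 8.31%) with neither. The members' share was thus the highest of the 4 classes, and its interval did not touch the others. Among peaks with a −log10 q of 5 or more in both lists 12.9% of members were overlapped, with 10 or more 2.93%, and when an overlap of 50% of each peak was asked for, 13.6%. The share moved with the strength and the width of the peaks, and with the length of sequence searched. Weighted to the members' 5 fold enrichment groups, the shares of the other classes were 12.8%, 16.25% and 15.2%, and weighted to both fold enrichment and width they were 16.2%, 17% and 18.95%.

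When all peaks were instead classed by the stretch within 100 bp of the summit, 13.9% of the 2136 peaks with both sites were overlapped (12.5 to 15.4%), against 10.1%, 10.9% and 10.7% in the other classes. With that class and the weighting by fold enrichment together, the members' 13.9% stood above the 11.75% of peaks with an AP-1 site only and below the 14.7% of peaks with an E box only and the 15.8% of peaks with neither. The higher overlap of members over whole peaks is therefore a statement about these listed regions as they are, wide and strong, and the part that the pair of sites has in it was not tested.

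**Figure D1:**
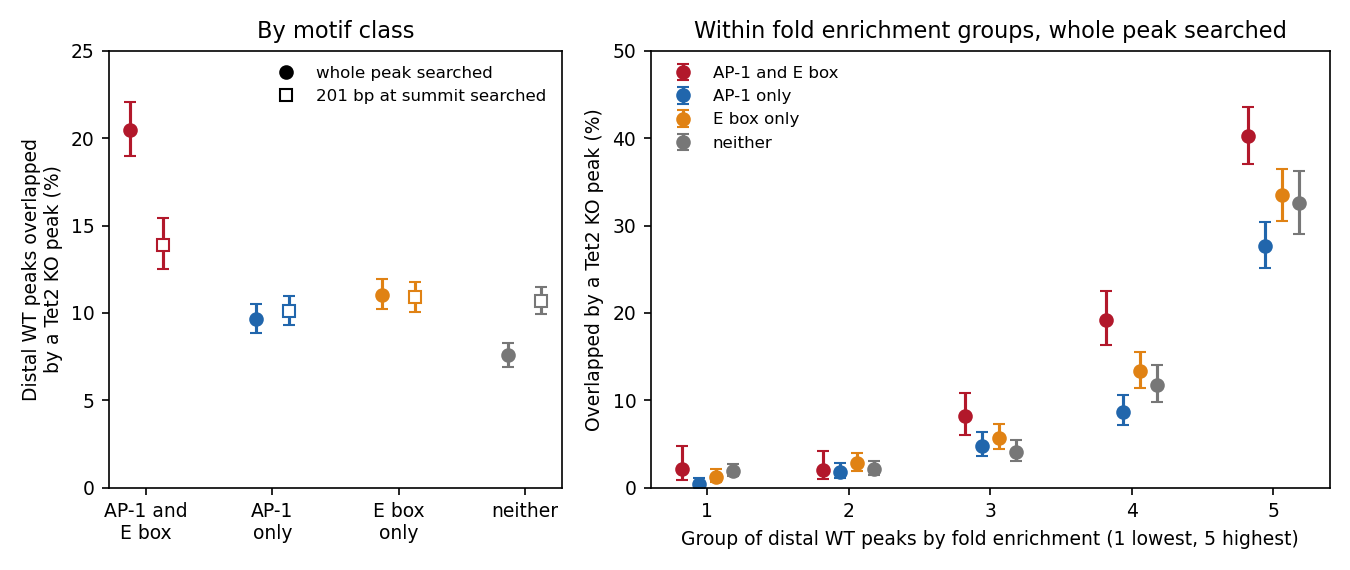
Percent of distal WT peaks overlapped by a Tet2 KO peak, with Wilson 95% intervals. Left, the 4 motif classes with the whole peak searched (filled circles, 20.5% for members) or only the stretch within 100 bp of the summit (open squares, 13.9% for members). Right, the classes by whole peak within 5 equal groups of fold enrichment, where the share rises from 2.10% of members in group 1 to 40.3% in group 5.

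Within groups of fold enrichment, members did not stand above the other classes among weak peaks. In the group of lowest fold enrichment 2.10% of 238 members were overlapped, and in the next 2.08% of 336, with intervals that reached 4.82% and 4.24% and held the values of at least 2 of the other classes. In the highest group, with a fold enrichment of 10.29 or more, 40.3% of 884 members were overlapped (37.1 to 43.5%), against 27.7% with an AP-1 site only (25.1 to 30.4%), 33.5% with an E box only (30.5 to 36.5%) and 32.6% with neither (29.05 to 36.3%). Classed by the stretch within 100 bp of the summit, the same group gave 32.15% of 619 peaks with both sites (28.6 to 35.9%), 29.8%, 34.9% and 36.6%. The difference in the strongest peaks was therefore not found with the shorter window.

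The share also moved with the number of sites. With 1 AP-1 site and 1 E box, 15.8% of 1706 members were overlapped (14.1 to 17.6%). With 1 AP-1 site and 2 or more E boxes it was 30.8% of 494 (26.86 to 34.97%), with 2 or more AP-1 sites and 1 E box 23.6% of 314 (19.2 to 28.6%), and with 2 or more of each 46.7% of 75 (35.8 to 57.8%). The median width in these 4 groups was 236, 297.5, 278 and 363 bp, and the median fold enrichment 8.76, 9.52, 9.75 and 10.7, so number, width and strength moved together. Peaks with 2 or more AP-1 sites and no E box had 16.98% (14.6 to 19.7%), and those with 2 or more E boxes and no AP-1 site 14.95% (13.3 to 16.8%), with intervals that met that of members with 1 site of each.

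Members with and without a Tet2 KO peak differed in the same way. The 530 overlapped members had a median fold enrichment of 11.3, a median width of 358 bp and a median of 5 CpG sites, and the 2059 others 8.52, 233 bp and 3. The overlap was alike in introns (19.9%, 17.8 to 22.1%) and between genes (21.1%, 18.9 to 23.4%). It was higher for members than for the other distal WT peaks on 19 of the 20 chromosomes. On chromosome X it was 1 of 37 (2.70%, 0.479 to 13.8%), and the highest share was on chromosome 15 (31.0%, 23.2 to 40.01%).

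In the 530 overlapped members the median fold enrichment was 11.3 in the WT list and 5.69 in the Tet2 KO list, and the median number of fragments at the summit was 29 and 15. The fold enrichment was lower in Tet2 KO in all 530, and the fragments were fewer in 525, equal in 1 and more in 4. The same held for nearly all other overlapped distal WT peaks, with a lower fold enrichment in Tet2 KO in 1384 of 1430 (96.8%), so the direction was not particular to members. The summits of both lists lay a median of 40 bp apart, and within 50 bp in 60.6%. Of the 530 Tet2 KO peaks, 333 held both sites, 77 an AP-1 site only, 81 an E box only and 38 neither, and 1 was not distal. These Tet2 KO peaks had a median width of 209.5 bp against 358 bp for the WT members they overlapped. The higher background of the Tet2 KO list enters its fold enrichment, so the values of both lists are not on 1 scale. Across the 530 pairs, all from the same 2 lists, the log2 fold enrichments had a Pearson correlation of 0.425.

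**Figure D2:**
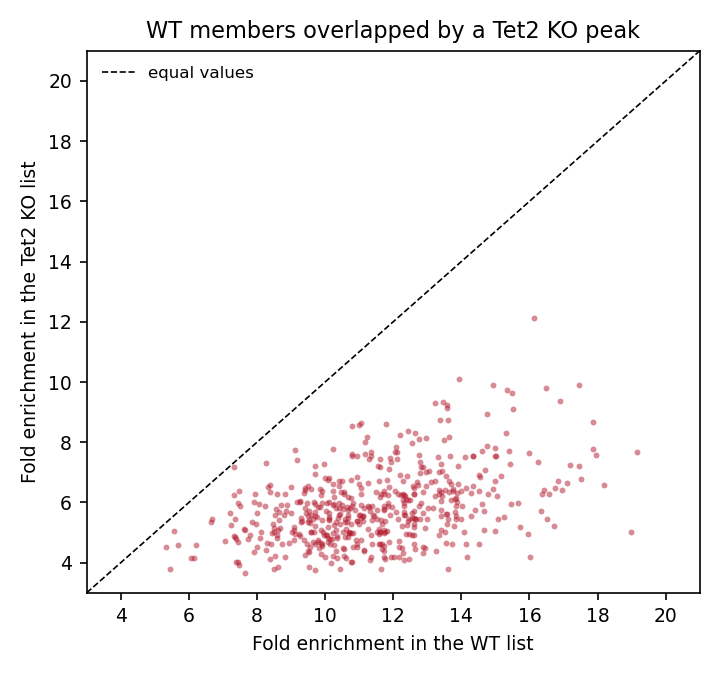
Fold enrichment of the 530 WT members overlapped by a Tet2 KO peak (x axis, WT list) against that of the Tet2 KO peak (y axis), 1 point per member. The dashed line marks equal values, and all 530 points lie below it.

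The Tet2 KO member with the highest fold enrichment, 12.11 with 31 fragments, lay between genes, 29858 bp from the start of 1190002N15Rik. It overlapped a WT peak, as did all the others, and no member was listed in Tet2 KO alone.

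Both kinds of site lay near the summit. In members the nearest AP-1 site was a median of 38 bp from the WT summit and the nearest E box 42.5 bp, and 33.99% and 31.75% of members had one within 25 bp. The AP-1 site was the nearer of the pair in 53.5% of members (51.6 to 55.4%). In peaks with a single kind of site the distances were shorter, 30 bp for AP-1 and 33.5 bp for the E box. Of these peaks 43.1% and 39.65% had one within 25 bp, with intervals that did not meet those of the members. Their median widths were 206 and 221 bp, against 255 bp in members. A pair of sites without shared bases cannot both lie at the summit, so the rule itself is linked to this difference. Both sites lay within 50 bp of the summit in 960 members (37.1%). Of these, 13.4% were overlapped by a Tet2 KO peak (11.4 to 15.7%), against 30.4% of the 460 members with neither site within 50 bp (26.4 to 34.8%). The median width of these groups was 212 and 335 bp, at a fold enrichment of 8.83 and 9.29.

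**Figure D3:**
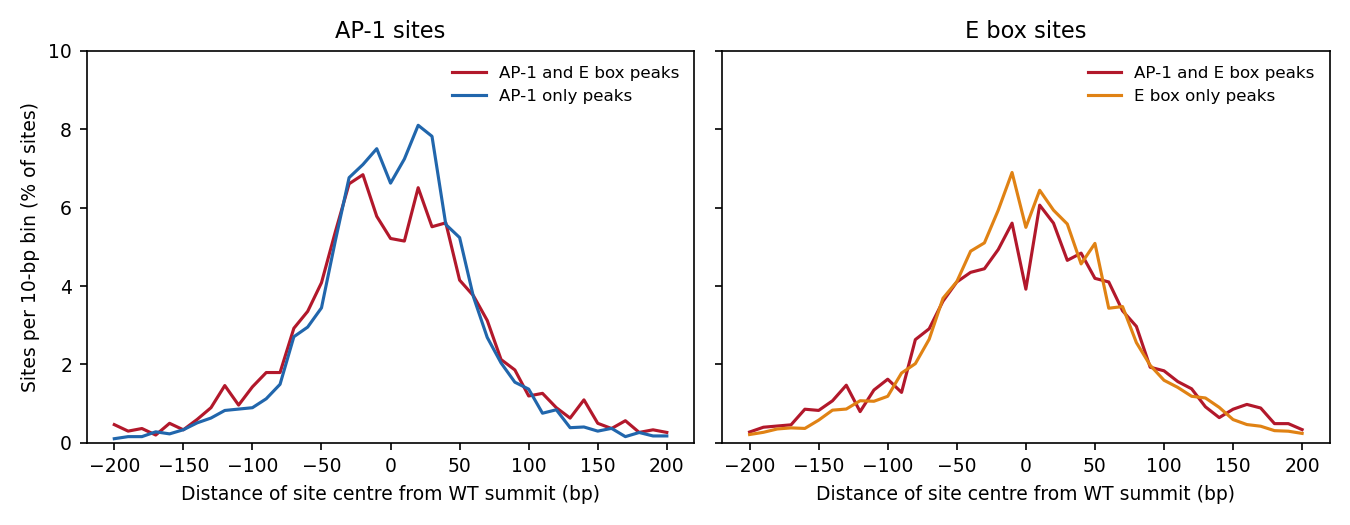
Position of AP-1 sites (left) and E boxes (right) relative to the WT summit, in bins of 10 bp, as percent of all sites of that kind in the class. The curves of peaks with both sites are lower at the centre than those of peaks with a single kind of site. In the latter the nearest site lies a median of 30 bp (AP-1) or 33.5 bp (E box) from the summit. Peaks with both sites are wider, and sites without shared bases cannot both lie at the summit, so the rule is linked to this difference.

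The closest AP-1 site and E box of a member lay a median of 49.5 bp apart from centre to centre (quartiles 21.5 and 91.5 bp), and 50.3% of members had at most 50 bp between the centres. Read with the E box on the right, the AP-1 site was TGACTCA in 1233 and TGAGTCA in 1217 of the 2450 members whose sites did not overlap, a share of 50.3% (48.35 to 52.3%), with no preferred orientation detectable. Over all pairs with at most 50 bases between the sites, the most frequent spacing was 4 bases, with 77 pairs in 77 members, followed by 6 bases with 49 pairs. The other spacings from 0 to 50 bases had 15 to 41 pairs. The 4-base pairs read TGACTCA before the E box in 60 and TGAGTCA in 17, and 17 of the 77 had the letters aaga between the sites. In 16 of these the AP-1 site was TGACTCA, the most frequent of 44 different arrangements. In mm9 as a whole 4 bases was also the most frequent spacing without shared bases. Of the pairs without shared bases, 4.66% had it in mm9 and 5.04% in members (4.05 to 6.25%), so the spacing was not detectably more frequent in members. Of all pairs with at most 50 bases between them, overlapping sites made up 22.9% in mm9 and 8.50% in members (7.26 to 9.94%).

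**Figure D4:**
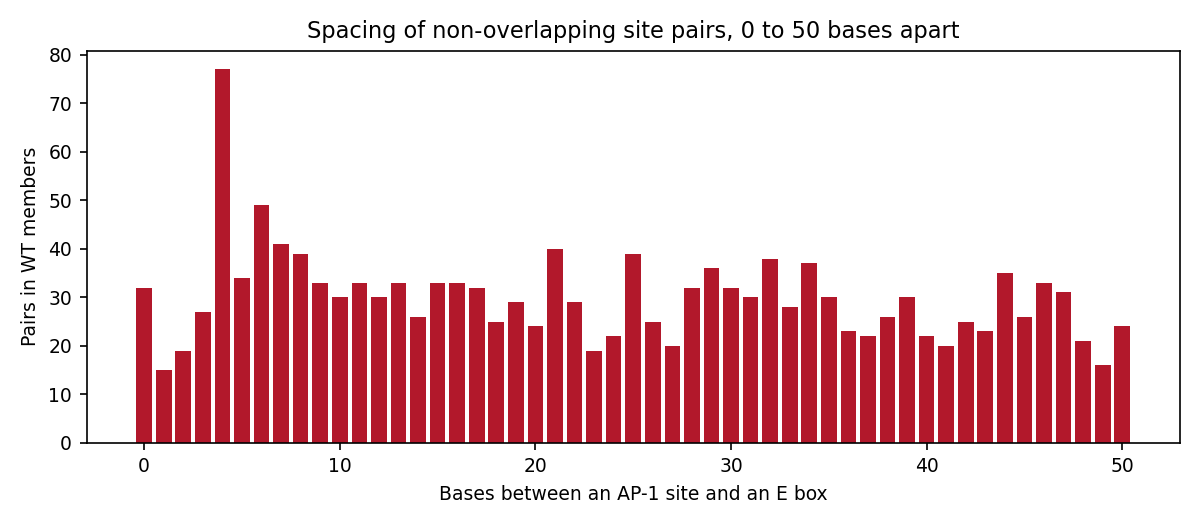
Number of pairs of an AP-1 site and an E box in WT members (y axis) by the number of bases between the sites (x axis, 0 to 50, overlapping sites left out). The bar at 4 bases, with 77 pairs, stands above the others, of which the next has 49.

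The spacing bore little relation to the Tet2 KO list among close pairs. Overlap by a Tet2 KO peak was 17.3% where the sites shared bases (11.9 to 24.4%), 17.8% with 0 to 9 bases between them and 17.5% with 10 to 19. It was 12.99% of the 77 members with a 4-base pair (7.21 to 22.3%). It was 29.3% with 150 bases or more but under 250, and 46.15% of 52 members with 250 or more (33.3 to 59.5%), in which the median width was 358.5 and 471 bp.

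The base before and after the E box was counted on both strands together. The most frequent form in members was aCAGCTGc, with 19.1% of 3266 E boxes (17.8 to 20.5%), against 23.4% in peaks with an E box only and 11.7% of all CAGCTG in the autosomes and X. The form gCAGCTGc made up 8.67% in members (7.75 to 9.68%), 12.45% in peaks with an E box only and 5.57% in the genome. Members thus lay between the genome and the peaks with an E box only for both forms. The forms aCAGCTGc and gCAGCTGc had 19.8% and 9.52% in members with a Tet2 KO peak and 18.9% and 8.40% in the others, within each other's intervals. At AP-1 sites, read as TGACTCA, the most frequent form in members was gTGACTCAg (13.7%, 12.53 to 14.99%). In peaks with an AP-1 site only this form had 11.3% (10.5 to 12.2%), and gTGACTCAc was the most frequent (12.5%, 11.6 to 13.4%). In the 142 pairs of members with shared bases the E box itself sets a base beside TGACTCA, g after it in 87 and c before it in 55.

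The study asks about CpG sites next to E boxes, and these letters were counted in the members. A CpG lay within 10 bases of an E box in 773 members (29.9%, 28.1 to 31.65%) and in 37.4% of peaks with an E box only (36.1 to 38.8%). Counted per E box, the shares were 25.4% in members, 30.2% in peaks with an E box only and 20.9% over all CAGCTG of the autosomes and X. Members with such a CpG were overlapped by a Tet2 KO peak in 22.25% (19.5 to 25.3%), those with the nearest CpG 11 to 50 bases away in 21.1% (18.8 to 23.5%), those at 51 to 100 bases in 20.2% and those at over 100 bases in 13.45% (9.92 to 17.99%). In peaks with an E box only the shares were 12.3%, 11.5%, 8.99% and 6.08% in the same order, so the fall was not particular to members. In members the median fold enrichment was 9.10 in the first, second and last of these groups and 9.09 in the third. Their median GC share fell in the same order, from 51.8% to 51.2%, 50% and 47.5%. In the highest fold enrichment group the members' shares were 42.2%, 41.9%, 36.9% and 32.6% in the same order, with intervals that overlapped. Those of peaks with an E box only were 35.9%, 35.1%, 31.1% and 18.8%. Methylation was not measured in these files, so whether these CpG sites were methylated is not known from them.

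Over the whole peak, the more CpG sites a member held the more often it was overlapped by a Tet2 KO peak. The share was 6.05% of 281 members without a CpG (3.81 to 9.47%), 11.8% with 1 to 2, 22.5% with 3 to 5 and 38.3% of 533 members with 6 or more (34.25 to 42.5%). The same order was seen in each of the other classes, from 3.28% to 22.3% with an AP-1 site only. Fold enrichment moved in the same direction, from a median of 8.33 to 9.91 in members, and a longer peak can hold more CpG sites. Per 1000 bp the median was 11.4 CpG sites in members and 13.1 in peaks with an E box only.

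**Figure D5:**
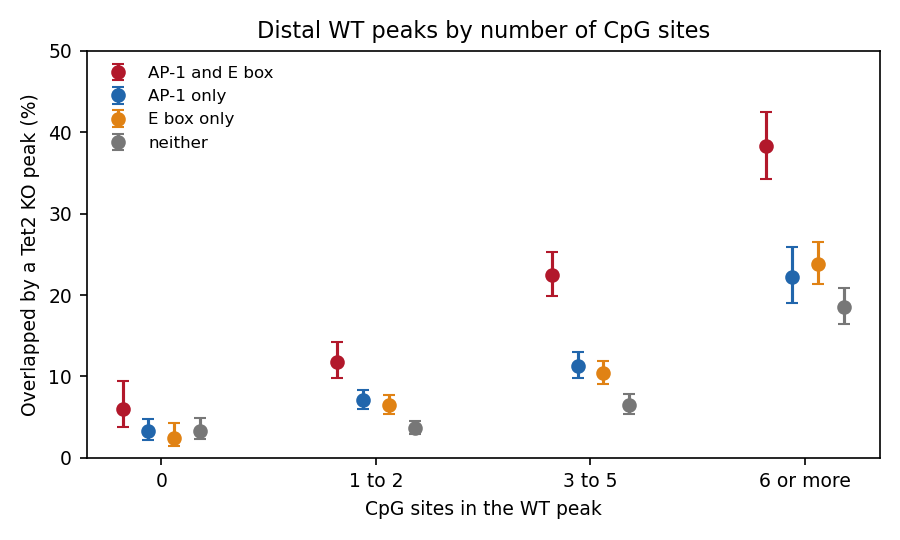
Percent of distal WT peaks overlapped by a Tet2 KO peak (y axis, Wilson 95% intervals) by the number of CpG sites in the WT peak (x axis), for the 4 motif classes. In members the share runs from 6.05% without a CpG site to 38.3% with 6 or more.

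Sites of other factors that the rule did not use were searched on both strands within 100 bp of the summit. The TEAD letters CATTCC, bound by the partners of YAP, were held by 18.96% of members, 18.8% of peaks with an AP-1 site only, 20.3% with an E box only and 22.8% with neither, against 10.4% of the windows 1000 bp away. The RUNX letters TGTGGT were held by 26.4% of members, 30.4%, 30.85% and 34.2% in the same order, against 15.2% of those windows. Members had the lowest RUNX share in this window, but over whole peaks, which are wider in members, the shares were 33.1%, 32.5%, 33.6% and 34.01%, with intervals that overlapped. The MEF2 letters TAAAAATA were held by 1.39% of members, 2.15%, 1.95% and 3.11% in the same order, against 3.27% of the windows. Over whole peaks the MEF2 shares were 2.51%, 2.63%, 2.43% and 3.31%, and members were not the lowest. The letters CAGGTG of another E box were held by 10%, 10.05%, 13.3% and 11.05%, against 14.2%. In contrast, the E box letters CAGATG were held by 22.1% of members, 24.9%, 21.2% and 22.1%, against 15.99% of the windows. The higher share was thus not particular to members. Over whole peaks the CAGATG shares were 28.5%, 26.6%, 24.0% and 21.7% in the same order. The TEAD shares were then 24.2%, 20.9%, 22.7% and 22.55%. Members, whose peaks are wider, had the highest of both. The ATF letters TGACGTCA were in 3 members at the summit (0.116%). They were in 0.147%, 0.737% and 0.890% of the other classes in the same order and in 0.154% of the windows. Of the longer consensus sites, CTCF was in 7 members, SRF in 2 and the full NFI site in 0, of 2589, and counts of this size carry wide intervals.

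The median distance from a member to the nearest protein-coding start was 31507 bp, against 32354 bp with an AP-1 site only, 27930.5 bp with an E box only and 24156.5 bp with neither, and 50.7% of members were intronic (48.8 to 52.6%). Only 10.04% lay within 5000 bp of a start, and 80.4% within 100000 bp. These 2082 members had 1781 nearest genes, 8.01% of 22232 protein-coding genes and 25.2% of the 7065 genes that had any distal WT peak. Most of these genes (1524) had 1 member, 220 had 2 and 37 had 3 or more. The next distal WT peak lay a median of 19712 bp from a member, 20804.5 bp from a peak with an AP-1 site only, 14790 bp from one with an E box only and 17172 bp from one with neither. By both distances members lay between the peaks with an AP-1 site only and those with an E box only.

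Without a limit on distance, the genes nearest to most members included Tcf7l2 with 6 and St3gal1, Med13l and Cdh13 with 5 each. Their overlap counts below are descriptions of 5 or 6 regions, beside 20.5% overlapped among all 2589 members. Tcf7l2 encodes a transcription factor of Wnt signalling, and its 6 members had WT fold enrichments between 9.596 and 11.68, of which the strongest, in an intron of Vti1a, was overlapped by a Tet2 KO peak. St3gal1 encodes a sialyltransferase, and 4 of its 5 members were overlapped, with WT values of 14.69, 12.61, 11.88 and 9.506, while the weakest at 8.235 was not. Med13l, of the Mediator kinase module, had 1 of 5 overlapped, with a WT value of 14.29. Cdh13, which encodes T-cadherin, had 2 of 5.

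Genes were grouped by lists of muscle and signalling genes, counted with members within 100000 bp for which they were nearest. Beside the 8.01% of all protein-coding genes and 25.2% of genes with a distal WT peak, 5 of 13 myogenic regulators had a member (10 had any distal WT peak), as did 9 of 31 sarcomere genes (24 had one), 4 of 16 fusion and adhesion genes (15), 6 of 16 extracellular matrix genes (14) and 5 of 7 RUNX and NFI genes (7). For E proteins and their inhibitors it was 5 of 13 (11), for growth factor and TGF-beta signalling 5 of 16 (12), for actin and SRF genes 3 of 15 (13), for cell cycle exit 2 of 9 (8), for the TEAD and YAP pathway 2 of 13 (12), for AP-1 proteins 2 of 10 (6) and for calcium handling 1 of 8 (6). Of all 2082 members within this distance of a gene, 432 (20.75%, 19.1 to 22.5%) were overlapped by a Tet2 KO peak, and the lists below hold at most 9 members each, so their counts of overlapped members are given as descriptions. Members farther away are not counted in the lists. Long genes and genes in wide intergenic stretches have more room for a distal peak, and no allowance was made for it.

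Among myogenic regulators, Mef2a had 3 members, Myod1 2, and Pax7, Six4 and Mef2c 1 each. Of these 8 regions 1 was overlapped by a Tet2 KO peak, the Myod1 region with a WT fold enrichment of 10.51, beside 20.75% of all members near genes. The other Myod1 region, chr7:53608608-53608916, lay 23082 bp from the start with 26 fragments and a fold enrichment of 5.895. The 3 Mef2a regions had 11.15, 9.237 and 6.406, Six4 8.059 and Mef2c 7.027. Counted by nearest gene, Myog, the differentiation factor at the centre of the study, had 1 distal WT peak, which was not a member. Myf5 and Myf6 had none by that count. Peaks within this distance but nearer to another gene were not counted for these genes.

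Of the 7 members of the fusion and adhesion list, 4 were overlapped by a Tet2 KO peak, beside 20.75% of all members near genes. Adam12, a metalloprotease of myoblast fusion, had 3 members, of which those with a WT fold enrichment of 13.4 and 13.39 were overlapped (6.356 and 7.276 in Tet2 KO) and that with 8.475 was not. Myof, which encodes the membrane repair protein myoferlin, had 1 overlapped (9.119 in WT and 7.754 in Tet2 KO) and 1 not (8.917). The intronic Cdh15 region, in the gene of M-cadherin, had 7.366 in WT with 32 fragments and 4.868 in Tet2 KO with 21. The region near Itga7, the integrin used to sort the cells, had 6.995 and no Tet2 KO peak.

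Of the 9 sarcomere members 1 was overlapped, beside the same 20.75%. It lay in an intron of Neb, the gene of the thin filament protein nebulin, with 12.57 and 41 fragments in WT and 6.548 and 17 fragments in Tet2 KO. The regions nearest to Lmod2, a thin filament regulator (12.83), Ttn, the gene of titin (12.44), and Actc1, the cardiac actin gene (9.852), had no Tet2 KO peak. The Lmod2 and Ttn regions lay in introns of the neighbouring genes Wasl and Ccdc141. Both members of Jph2, which links the T-tubule to the sarcoplasmic reticulum, were overlapped, with 13.38 in WT and 8.749 in Tet2 KO for one and 10.78 and 4.024 for the other.

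Among regulators of helix-loop-helix dimers, 3 of 6 members were overlapped, beside 20.75% of all members near genes. They were those of Id2 and Heyl described with their sequences and 1 of the 2 members of Id3, another inhibitor of E proteins. The overlapped Id3 region had a fold enrichment of 7.921 in WT with 23 fragments and 4 E boxes. The other Id3 region had 9.155 with 25 fragments and no Tet2 KO peak. A CpG lay directly beside an E box both there and in the overlapped Id2 region. The members of AP-1 genes were those of Atf3 with 8.108 and Junb with 4.435, and neither was overlapped. Among matrix genes, Tnc had a second region with 13.85 in WT and 5.873 in Tet2 KO, and the regions of Col1a1 (12.15), Col5a1 (12.08) and Col4a2 (10.33) had no Tet2 KO peak. Of the signalling receptors, Bmpr1a had 12.33 in WT and 5.873 in Tet2 KO, whereas Met, the receptor of hepatocyte growth factor (12), and Fgfr4 (9.392) were in the WT list only. Runx2 had 11.72 in WT and 5.734 in Tet2 KO, and the regions of Runx1 (8), Runx3 (6.957) and Nfib (6.667) had no Tet2 KO peak. A stronger Runx1 member 180707 bp from the start had 11.9 in WT and 7.489 in Tet2 KO. For cell cycle genes, Ccnd3 had a region with 7.447 in WT and 5.984 in Tet2 KO and another with 7.829 in WT only, and Cdk6 had 14.45 in WT only, with another member 191450 bp from its start that had 11.38 in WT and 5.873 in Tet2 KO. None of the 4 members of the actin and SRF list was overlapped, with Myh9 at 14.35 the strongest. Within 100000 bp, 1 of 9 matrix members and 1 of 5 signalling members were overlapped. For RUNX and NFI factors it was 1 of 6, and for cell cycle exit 1 of 3. All these counts stand beside the same 20.75%.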

How the data were processed

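ATAC-seq reads of 2 WT and 2 Tet2 KO samples were trimmed by the authors from 150 to 36 bp, aligned to mm9 with Bowtie2, filtered to mapping qualities from 30, freed of duplicates with Picard, and used to call peaks with MACS2 (q of 0.01, per sample, in the methods). CASAVA is also named in the submitters' processing notes. The values the authors deposited are a ratio (fold enrichment at the summit, with a pseudocount) and the −log10 p-value and −log10 q-value of each peak. The smallest −log10 q was 2.18 in WT and 0.863 in Tet2 KO, so the lists were not held to 1 cutoff. Total read numbers are not known. Each list was tied to its genotype by its name. All its peaks carry 1 library name, which matches no sample label, and whether that library is 1 sample or a pool is not given in the sources used here.

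GENCODE M1 at the centre of a peak gave its feature, and the mm9 sequence its motifs. Sharing 1 bp counted as overlap. The fragments at a summit were found from fold enrichment and −log10 p as the whole number whose Poisson probability, as MACS2 computes it, matched to within 0.001. Weighted shares are means over the 5 fold enrichment groups, or these crossed with 5 width groups, weighted by the number of members. The members, gene lists and named genes were chosen with earlier results of these data known. Named were the 8 members of highest fold enrichment, the 5 highest with and without a Tet2 KO peak, the 5 with the closest sites, the 5 genes with most members (1 of which is not reported here) and up to 4 members for each gene list. The members with overlapping sites, the strongest Tet2 KO member, further members of listed genes and the weighted shares and their classes within 100 bp of the summit were chosen after their values were seen. No test was made. The motif classes, the finding of sites on both strands, the overlap and the Wilson interval were tested on simulated data. The other steps were not. Scripts ran in Python 3.11.15 with pandas 2.3.3, numpy 2.4.6 and scipy 1.17.1, and plots were drawn with matplotlib 3.10.9.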

Additional observations from a re-analysis of the deposited data

How the results depend on the processing

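Of 90 values computed under another setting, 70 stayed within the interval of the reported value (or a count within 1.5 times). Keeping peaks with a −log10 q from 5 upward, the ratio of WT to Tet2 KO members was 11, members were 15.2% of distal WT peaks, and 12.9% were overlapped by a Tet2 KO peak. From 10 upward, there were 50 Tet2 KO members, a ratio of 37.6, 19.6% members, 2.93% overlapped and a median fold enrichment of 10.1. With a fold enrichment of at least 5 the ratio was 9.39 and 15.6% were overlapped. With peaks within 500 bp merged, members were 15.8% and the closest sites lay 52.5 bp apart. Within 100 bp of the summit, 11.96% were members, 13.9% of them were overlapped, the median fold enrichment was 8.62, the co-occurrence ratio 0.772, the share with a CpG within 10 bases of an E box 27.6% and the distance 42.5 bp. With an overlap of 50% of each peak 13.6% were overlapped, and with a CpG within 20 bases the share was 47.6%.

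The difference in overlap between members and the other classes, added after seeing the data, was 10.8 percentage points for AP-1 only, 9.42 for E box only and 12.9 for neither. Weighted to fold enrichment it was 7.70, 4.22 and 5.24, to fold enrichment and width 4.25, 3.47 and 1.52, and within 100 bp of the summit 3.79, 3.01 and 3.22. Within 100 bp of the summit and weighted to fold enrichment it was 2.15, -0.79 and -1.88, and the cause was not tested. No paired analysis was possible because 1 peak list stands for each genotype and its columns carry no replicate number, and no replicate could be left out.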
